A study of Ictalurus furcatus with 6 samples.

Results

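The pyruvate dehydrogenase complex (PDC) and tricarboxylic acid (TCA) cycle module held 53 of the 27416 features in the expression table of blue catfish (*Ictalurus furcatus*) sperm. Members were chosen by gene name alone: subunits of the PDC, its kinases and phosphatase, the mitochondrial pyruvate carrier, pyruvate carboxylase, the enzymes of the cycle, malic enzymes, aspartate aminotransferases and glutamate dehydrogenase. The 53 features carried 41 distinct names. The name came from the Ensembl annotation for 42 of them and from eggNOG for the other 11, and 9 of those 11 have NA in place of an Ensembl name. Features with consecutive identifiers and the same name, such as *PC*, *SUCLG2* and *ME3*, may not be separate genes, and this was not tested.

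The samples were testicular sperm of mature blue catfish males of the D&B strain, obtained by dissecting the testes and sequenced as poly(A) RNA. In the cryopreserved group (C2, C3 and C5), sperm was diluted in Hank's balanced salt solution, mixed with methanol as cryoprotectant and frozen in straws at a controlled rate. In the fresh-frozen group (F2 and F3), sperm was flash-frozen directly in liquid nitrogen. The paper describes extracting sperm from the testis tissue that remained after this collection, and cryopreserving an aliquot of that extract. This difference in preparation coincides with the groups and cannot be told apart from cryopreservation. Both groups were thawed in the same way before RNA extraction. The digit in a sample name is the male, so C2 and F2 share 1 male, C3 and F3 share another, and C5 has no fresh-frozen partner here. Samples within a group thus came from different males. C2 is the mean of 2 technical replicates.

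Pyruvate made by glycolysis enters mitochondria through the pyruvate carrier. There the PDC turns it into acetyl-CoA: the E1 component (α subunits from *pdha1*, β subunit from *pdhb*) decarboxylates it, E2 (*dlat*) transfers the acetyl group, and E3 (dihydrolipoamide dehydrogenase), held by the E3-binding protein (*pdhx*), reoxidizes the lipoyl arm. Pyruvate dehydrogenase kinases shut the complex off by phosphorylating E1α, and the phosphatase *pdp1* reverses this. Acetyl-CoA is then oxidized in the TCA cycle, which feeds the respiratory chain of the sperm midpiece. In human and mouse, a testis-specific E1α gene is used in spermatogenic cells alongside the somatic one.

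Values are CPM, reads of a feature scaled to the library total and not to gene length, so levels were compared between samples and not between genes. A member was called a differentially expressed gene (DEG) when its log2 fold change, cryopreserved over fresh-frozen on the log2(CPM + 1) scale, exceeded 2 in size at a Benjamini-Hochberg FDR below 0.05 in limma. The libraries were not alike in composition. In the middle feature of each column the value was 9.60 and 9.55 CPM for the runs of C2, 15.0 CPM for C3 and 2.03 CPM for C5, against 15.7 CPM for F2 and 15.6 CPM for F3, and C5 listed 2664 features at 0. The median log2 fold change over all 27255 features tested was −1.02, so a value near −1.02 is that of the middle feature of the table. The 13 features found for 12 of 15 markers of haploid germ cells and flagella summed to 7421, 3592 and 13533 CPM across C2, C3 and C5. In F2 and F3 they summed to 550 and 498 CPM. Of these 13, 6 were upregulated DEGs, against 1.54% of all features, and 12 lay above in every cryopreserved sample, against 13.6%. The 12 features found for 9 of 10 markers of spermatogonia and spermatocytes summed to 375, 624 and 269 CPM in cryopreserved sperm, against 694 and 630 CPM in fresh-frozen sperm. Of these 12, 0 were DEGs, 9 overlapped between groups and 3 lay below in every cryopreserved sample, against 41.7% of all features. Their median log2 fold change was −0.62, above the −1.02 of all features. In bulk RNA, a smaller share of a cell type and less RNA per cell of that type cannot be told apart.

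Of the 53 members, 3 were upregulated DEGs in cryopreserved sperm (5.66%), against 1.54% of all features tested. They were *pdha1a*, *pdha1b* and *pdhb*, the complete set of E1 features in the table. No member was a downregulated DEG, and neither was any of the 27255 features (0% by limma). At an unadjusted p below 0.05 and the same fold, 8 members were higher and 3 were lower in cryopreserved sperm, against 5.73% and 9.36% of all features. With the male as a block, 5 members were upregulated DEGs (*pdha1a*, *pdha1b*, *pdhb*, *mpc2* and *cs*), against 4.17% of all features. In that fit the fold changes rest on males 2 and 3, and 1 residual degree of freedom is left. Its variances were set wholly by the trend over all features, so its FDR values do not measure a gene's own spread between males. The count changed with the samples kept: it was 0 without C2, when 0% of all features passed as well, and 11 up and 10 down without C3, when 6.77% and 25.6% of all features passed. Without C5 it was 4 (3.1% of all features), and without F3 it was 2 (0.969%). It was 0 at a pseudocount of 0.1 (0.572% of all features) and with median centring or a constant prior (0%), 5 at a pseudocount of 5 (2.46%) and 7 after quantile normalization (5.21%). The median log2 fold change of the members was −0.39, which lies above the −1.02 of all features, and it turned positive (0.77, 0.66 and 0.30) under trimmed-mean (TMM) rescaling, median centring and quantile normalization.

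All 3 cryopreserved samples lay above both fresh-frozen samples in 17 members (32.1%), against 13.6% of all features. They lay below both in another 17 members (32.1%), against 41.7% of all features, and the groups overlapped in the remaining 19. C3 was the lowest of the cryopreserved samples in 17 of the 17 members that lay above, and C5 the highest in 16 of them. The full order C5, C2, C3, then fresh-frozen was held by 16 members and by 7.79% of all features. Over all features, 2124 of the 3708 that lay above held it. Summed flagellar markers had the same order, and their part in these values was not tested. Among the 17 members that lay below, C5 was the lowest in 14 and C3 the highest in 13. From low to high, the full order C5, C2, C3, then fresh-frozen was held by 11 members. It was also held by 32.8% of all features (8927, of the 11375 that lay below), so it was not particular to the module.

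**Figure D1:**
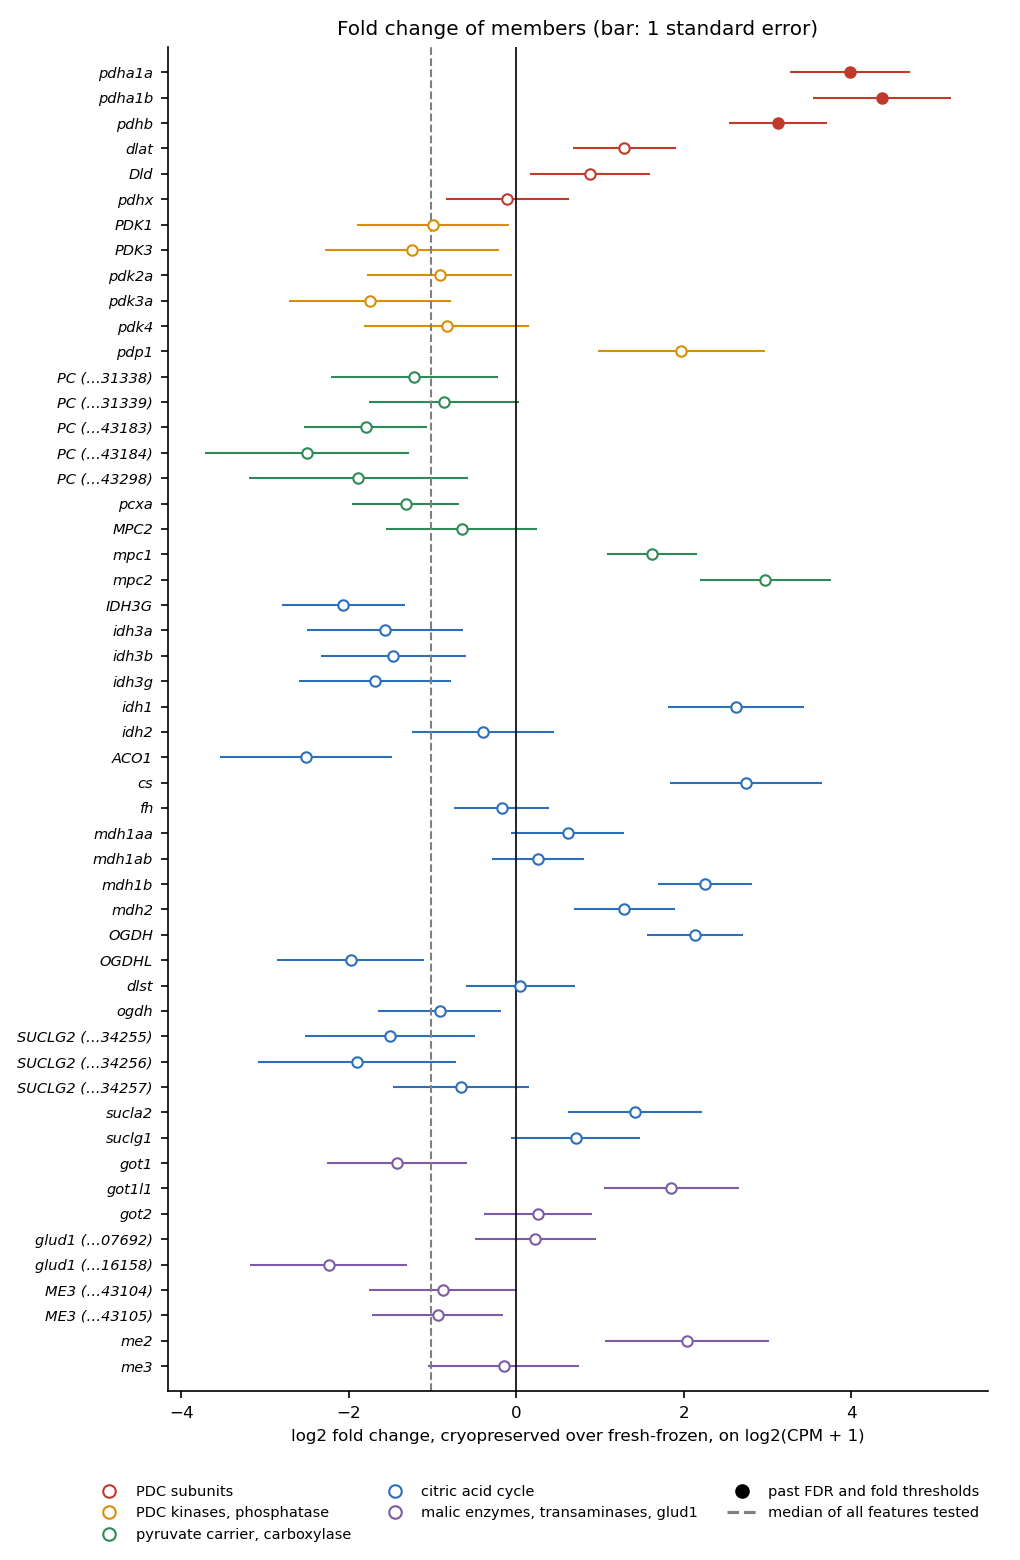
Log2 fold change (cryopreserved over fresh-frozen, log2(CPM + 1) scale, x axis) of 52 of the 53 members, grouped by role; bars are 1 standard error from limma, filled points passed both DEG thresholds and the dashed line is the median of all features tested at −1.02. The 3 filled points are the E1 features *pdha1a* (3.98), *pdha1b* (4.37) and *pdhb* (3.13). The citric acid cycle group includes cytosolic enzymes such as *ACO1* and *idh1*.

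The 3 E1 features rose together in cryopreserved sperm. The α-subunit gene *pdha1a* (AUIFUG00000021329) had 407, 196 and 1199 CPM across C2, C3 and C5, against 27.0 and 29.0 CPM in F2 and F3. Its lowest cryopreserved value was thus well above both fresh-frozen values, while the cryopreserved values themselves spread widely. The log2 fold change was 3.98 ± 0.72 (SE; 95% interval 2.42 to 5.55; FDR = 0.0191), 5.0 above the median of all features. The 2 technical replicates of C2 gave 410.0 and 404 CPM. The second α-subunit copy, *pdha1b* (AUIFUG00000014101), had 171, 69.9 and 299 CPM in cryopreserved sperm, against 6.19 and 6.77 CPM in fresh-frozen sperm. It had the largest fold change of the 53 members, 4.37 ± 0.83 on the log2 scale (95% interval 2.56 to 6.17; FDR = 0.0237), and 99.5% of all features tested had a lower one. The β-subunit gene *pdhb* (AUIFUG00000010279) had 547, 275 and 1070.1 CPM across C2, C3 and C5, against 70.3 and 53.5 CPM in F2 and F3. Its log2 fold change was 3.13 ± 0.59 (95% interval 1.84 to 4.41; FDR = 0.0233). In group means, *pdha1a* averaged 600.5 ± 529 CPM in cryopreserved sperm and 28.0 ± 1.43 CPM in fresh-frozen sperm (SD, n = 3 and 2), a ratio of 21.5, and the corresponding ratios were 27.8 for *pdha1b* and 10.2 for *pdhb*. The direction held in all 16 alternative analyses in which the genes were fitted, with *pdha1a* and *pdha1b* passing both thresholds in 12 of them and *pdhb* in 10. None of the 3 passed without C2, at a pseudocount of 0.1, after median centring or with a constant prior, although their log2 fold changes were then of similar size or larger. Without C2 they were 4.07 for *pdha1a*, 4.29 for *pdha1b* and 3.13 for *pdhb*. No feature at all passed without C2, after median centring or with a constant prior.

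The other core subunits did not pass the test. The E2 gene *dlat* (AUIFUG00000000824) had 259.7, 143 and 576 CPM in cryopreserved sperm, against 94.7 and 134 CPM in fresh-frozen sperm. C3 exceeded F3 only narrowly, and the log2 fold change of 1.29 ± 0.62 had an FDR of 0.265. The feature named *Dld*, taken here as E3, had 71.2, 49.4 and 83.9 CPM across C2, C3 and C5, against 36.4 and 34.8 CPM in F2 and F3 (log2 fold change 0.88 ± 0.71; FDR = 0.400). This name is ambiguous, because RefSeq lists both *dld*, a Notch ligand in zebrafish, and *dldh*, the dehydrogenase, for blue catfish. The E3-binding protein gene *pdhx* overlapped between groups, with 43.8, 44.0 and 37.3 CPM in cryopreserved sperm, against 47.0 and 42.8 CPM in fresh-frozen sperm. Its log2 fold change was −0.11 ± 0.73, but 1.07, 0.94 and 0.55 under TMM rescaling, median centring and quantile normalization, so its direction depends on the scaling.

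**Figure D2:**
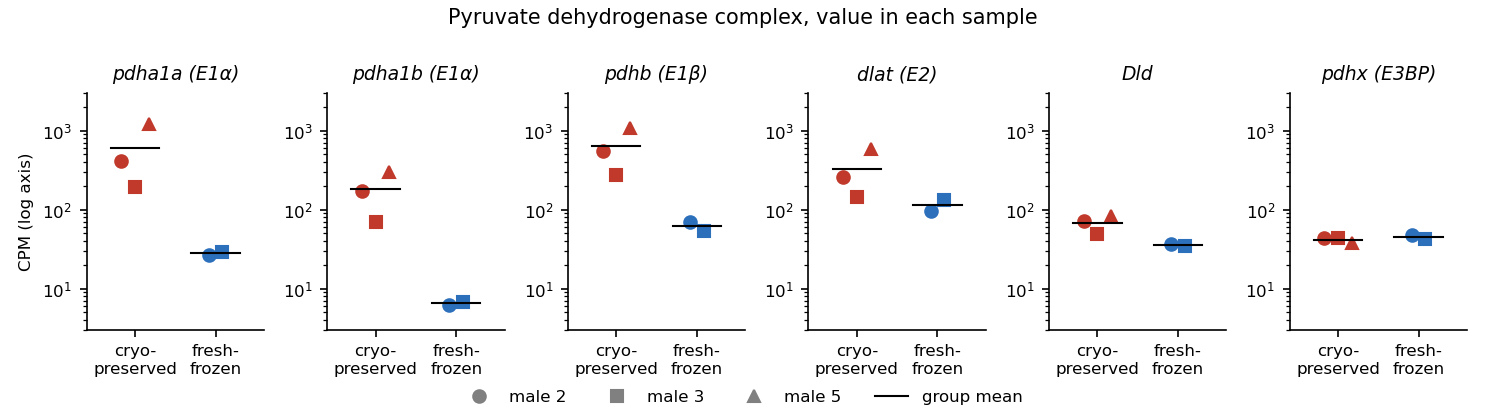
CPM (log axis) of the 6 PDC subunit features in each sample, cryopreserved left and fresh-frozen right; the marker shape is the male and the line is the group mean. For *pdha1a* the cryopreserved samples lie between 196 and 1199 CPM and the fresh-frozen ones at 27.0 and 29.0 CPM, whereas for *pdhx* the groups overlap.

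The ratio of 2 transcripts within a library does not depend on how that library was scaled, and 25 such ratios were compared. The 3 against 2 design allows 10 assignments of samples, so the smallest two-sided p of the exact permutation test is 0.1. Adjustment over the 25 ratios gives 0.238. These pairs were chosen with earlier results of these data known, so the p-values describe the ratios and are not independent evidence. Relative to *pdhb*, *dlat* stood at 0.475, 0.518 and 0.538 in C2, C3 and C5, against 1.35 and 2.50 in F2 and F3. These cryopreserved ratios were close to each other although *pdhb* itself varied between 275 and 1070.1 CPM in the same samples. The mean log2 difference was −1.85 (exact permutation p = 0.1). *Dld* relative to *pdhb* was 0.130, 0.179 and 0.0784 in cryopreserved sperm, against 0.518 and 0.651 in fresh-frozen sperm (log2 difference −2.25; exact permutation p = 0.1). Within E1, the ratio of *pdha1a* to *pdhb* was 0.745, 0.711 and 1.12 in C2, C3 and C5, against 0.383 and 0.542 in F2 and F3 (log2 difference 0.88; exact permutation p = 0.1). The ratio of *pdha1a* to *pdha1b* was 2.38, 2.80 and 4.0 in cryopreserved sperm, against 4.36 and 4.28 in fresh-frozen sperm (log2 difference −0.53; exact permutation p = 0.2). How reads shared by the copies were assigned is not given in the sources used here.

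Among the regulators, none of the 5 kinase features or the phosphatase passed the test. *pdk3a* (AUIFUG00000015459), a copy of pyruvate dehydrogenase kinase 3, had 26.6, 70.9 and 6.69 CPM across C2, C3 and C5, against 79.8 and 84.1 CPM in F2 and F3. C3 was close to the fresh-frozen values and C5 far below them (log2 fold change −1.74 ± 0.97; FDR = 0.277). *pdk4*, a kinase that fasting induces in mammals, had 40.2, 37.1 and 5.86 CPM in cryopreserved sperm, against 43.4 and 33.6 CPM in fresh-frozen sperm. It overlapped between groups, with a log2 fold change of −0.83 ± 0.98 that became 0.30, 0.22 and 0.16 under the other scalings and 0.02 with the male as a block. The remaining kinases had low values throughout. *PDK3* had 2.64, 11.6 and 1.21 CPM across C2, C3 and C5, against 7.27 and 13.8 CPM in F2 and F3. *PDK1* had 4.73, 3.80 and 0.877 CPM in cryopreserved sperm, against 5.82 and 7.01 CPM in fresh-frozen sperm. In *PDK1* the technical replicates of C2 alone differed as 8.08 and 1.37 CPM, the largest disagreement of any member (1.94 on the log2 scale, against a median of 0.21). *pdk2a* had 3.79, 3.04 and 0.715 CPM across C2, C3 and C5, against 4.0 and 6.33 CPM in F2 and F3. Over the 5 kinases the log2 fold changes ran between −1.74 and −0.83, or −0.72 and 0.19 relative to the median of all features, and only *pdk3a* and *PDK3* were negative under all 4 scalings. The phosphatase *pdp1* had 12.5, 9.97 and 21.3 CPM in cryopreserved sperm, against 1.07 and 5.93 CPM in fresh-frozen sperm (log2 fold change 1.97 ± 1.0; FDR = 0.267). All 3 cryopreserved samples lay above, but F2 and F3 also stood well apart from each other.

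Ratios of the regulators to the target subunit *pdha1a* also carry the rise of *pdha1a* itself. They were taken on CPM without a pseudocount, and *pdk2a* had only 0.715 CPM in C5. The ratio of *pdk3a* to *pdha1a* was 0.0653, 0.362 and 0.00558 in C2, C3 and C5, against 2.96 and 2.90 in F2 and F3 (log2 difference −5.85; exact permutation p = 0.2). *pdk2a* relative to *pdha1a* was 0.00931, 0.0155 and 0.000596 in cryopreserved sperm, against 0.148 and 0.218 in fresh-frozen sperm (log2 difference −5.35; exact permutation p = 0.1). For *pdp1* relative to *pdha1a* the groups overlapped, with 0.0307, 0.0509 and 0.0177 in C2, C3 and C5, against 0.0398 and 0.204 in F2 and F3.

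The mitochondrial pyruvate carrier is a heterodimer of Mpc1 and Mpc2. *mpc2* (AUIFUG00000022793) had 126, 65.4 and 147 CPM in cryopreserved sperm, against 18.6 and 8.59 CPM in fresh-frozen sperm. The groups were well apart, and the log2 fold change of 2.98 ± 0.78 missed the FDR threshold (0.104), which it met with the male as a block (0.00444) and under TMM rescaling (0.0462). *mpc1* (AUIFUG00000006850) had 271, 199 and 321 CPM across C2, C3 and C5, against 107 and 64.2 CPM in F2 and F3 (log2 fold change 1.63 ± 0.54; FDR = 0.242). The ratio of *mpc1* to *mpc2* was 2.14, 3.04 and 2.18 in cryopreserved sperm, against 5.76 and 7.48 in fresh-frozen sperm (log2 difference −1.44; exact permutation p = 0.1). A further feature annotated *MPC2* by eggNOG (AUIFUG00000042982) had 21.1, 29.4 and 8.71 CPM across C2, C3 and C5, against 29.9 and 26.9 CPM in F2 and F3, and its sign changed with the scaling. The ratio of *mpc2* to *MPC2* was 6.0, 2.22 and 16.9 in cryopreserved sperm, against 0.622 and 0.320 in fresh-frozen sperm.

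Pyruvate carboxylase, which makes oxaloacetate from pyruvate, had 6 features, and none passed the test in either direction. *pcxa* (AUIFUG00000020912) had 46.7, 112 and 58.1 CPM across C2, C3 and C5, against 158 and 181 CPM in F2 and F3. All 3 cryopreserved samples were lower, with a log2 fold change of −1.32 ± 0.64 (FDR = 0.265). Of the 5 features named *PC*, AUIFUG00000043184 showed the widest spread in CPM between cryopreserved samples. It had 13.8, 48.8 and 1.03 CPM in cryopreserved sperm, against 58.7 and 69.0 CPM in fresh-frozen sperm. Its log2 fold change was −2.50 ± 1.22 (FDR = 0.265). AUIFUG00000043183 had 1.54, 0.814 and 0.241 CPM across C2, C3 and C5, against 5.83 and 4.65 CPM in F2 and F3, again without overlap. Its group mean exceeded 1 CPM only in fresh-frozen sperm, so it passed the filter through that group alone. Of the 6 features, 3 thus lay below in every cryopreserved sample, against 41.7% of all features. The other *PC* features overlapped between groups. AUIFUG00000031338 had 10.6, 19.5 and 3.71 CPM in cryopreserved sperm, against 18.6 and 28.5 CPM in fresh-frozen sperm. AUIFUG00000031339 had 14.1, 21.9 and 10.3 CPM across C2, C3 and C5, against 20.0 and 37.9 CPM in F2 and F3. AUIFUG00000043298 had 8.69, 27.6 and 0.0480 CPM in cryopreserved sperm, against 17.8 and 30.6 CPM in fresh-frozen sperm. All but AUIFUG00000031339 (−0.86, and 0.28, 0.19 and 0.0048 under the other scalings) were negative under all 4 scalings. Relative to the median of all features, the log2 fold changes of the 6 ran between −1.48 and 0.16, with *pcxa* at −0.30.

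*cs*, citrate synthase, which condenses acetyl-CoA with oxaloacetate, had 76.0, 25.2 and 88.4 CPM in cryopreserved sperm, against 10.2 and 5.32 CPM in fresh-frozen sperm. The groups did not overlap, and the log2 fold change was 2.75 ± 0.91 with an FDR of 0.243, or 0.0430 with the male as a block. *ACO1*, the cytosolic aconitase that doubles as an iron-regulatory protein, lay below fresh-frozen sperm, with 20.2, 83.6 and 5.02 CPM in cryopreserved sperm, against 137 and 115 CPM in fresh-frozen sperm. Its log2 fold change of −2.51 ± 1.03 (FDR = 0.265) was the lowest of the 53 members, −1.49 relative to the median of all features.

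NAD-dependent isocitrate dehydrogenase (IDH3), a mitochondrial enzyme of α, β and γ subunits, had 4 features. All of them lay below fresh-frozen sperm in the 3 cryopreserved samples, as did 41.7% of all features. *idh3a* had 39.3, 68.7 and 7.86 CPM in cryopreserved sperm, against 83.1 and 88.4 CPM in fresh-frozen sperm. *idh3b* had 35.8, 65.0 and 10.9 CPM across C2, C3 and C5, against 86.4 and 81.1 CPM in F2 and F3. *idh3g* had 58.1, 141 and 12.7 CPM in cryopreserved sperm, against 149 and 162 CPM in fresh-frozen sperm. The 3 genes thus shared the order C5, C2, C3, fresh-frozen from low to high, and so did 32.8% of all features. The second γ feature, *IDH3G*, was low throughout, with 1.54, 0.0719 and 0.607 CPM across C2, C3 and C5, against 5.83 and 5.83 CPM in F2 and F3. Its group mean exceeded 1 CPM only in fresh-frozen sperm, so it passed the filter through that group alone. The log2 fold changes of *idh3a*, *idh3b* and *idh3g* ran between −1.68 and −1.47, or −0.66 and −0.45 relative to the median of all features. That of *IDH3G* was −2.06. All 4 were negative under all 4 scalings, but none passed the test (FDR of at least 0.265). Between the α and β subunits, the ratio of *idh3a* to *idh3b* was 1.10, 1.06 and 0.723 in cryopreserved sperm, against 0.962 and 1.09 in fresh-frozen sperm (log2 difference −0.12; exact permutation p = 0.9).

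The NADP-dependent isocitrate dehydrogenases behaved otherwise. *idh1*, the cytosolic enzyme, had 109, 52.5 and 251 CPM across C2, C3 and C5, against 17.1 and 17.8 CPM in F2 and F3 (log2 fold change 2.63 ± 0.81; FDR = 0.196). *idh2*, its mitochondrial relative, overlapped between groups, with 45.6, 50.0 and 14.0 CPM in cryopreserved sperm, against 43.4 and 41.1 CPM in fresh-frozen sperm, and its sign (log2 fold change −0.39 ± 0.85) depended on the scaling. The ratio of *idh1* to *idh2* was 2.38, 1.05 and 17.8 in C2, C3 and C5, against 0.395 and 0.432 in F2 and F3 (log2 difference 3.10; exact permutation p = 0.2). For *idh3a* to *idh2* the ratio was 0.862, 1.38 and 0.560 in cryopreserved sperm, against 1.92 and 2.15 in fresh-frozen sperm (log2 difference −1.22; exact permutation p = 0.2).

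**Figure D3:**
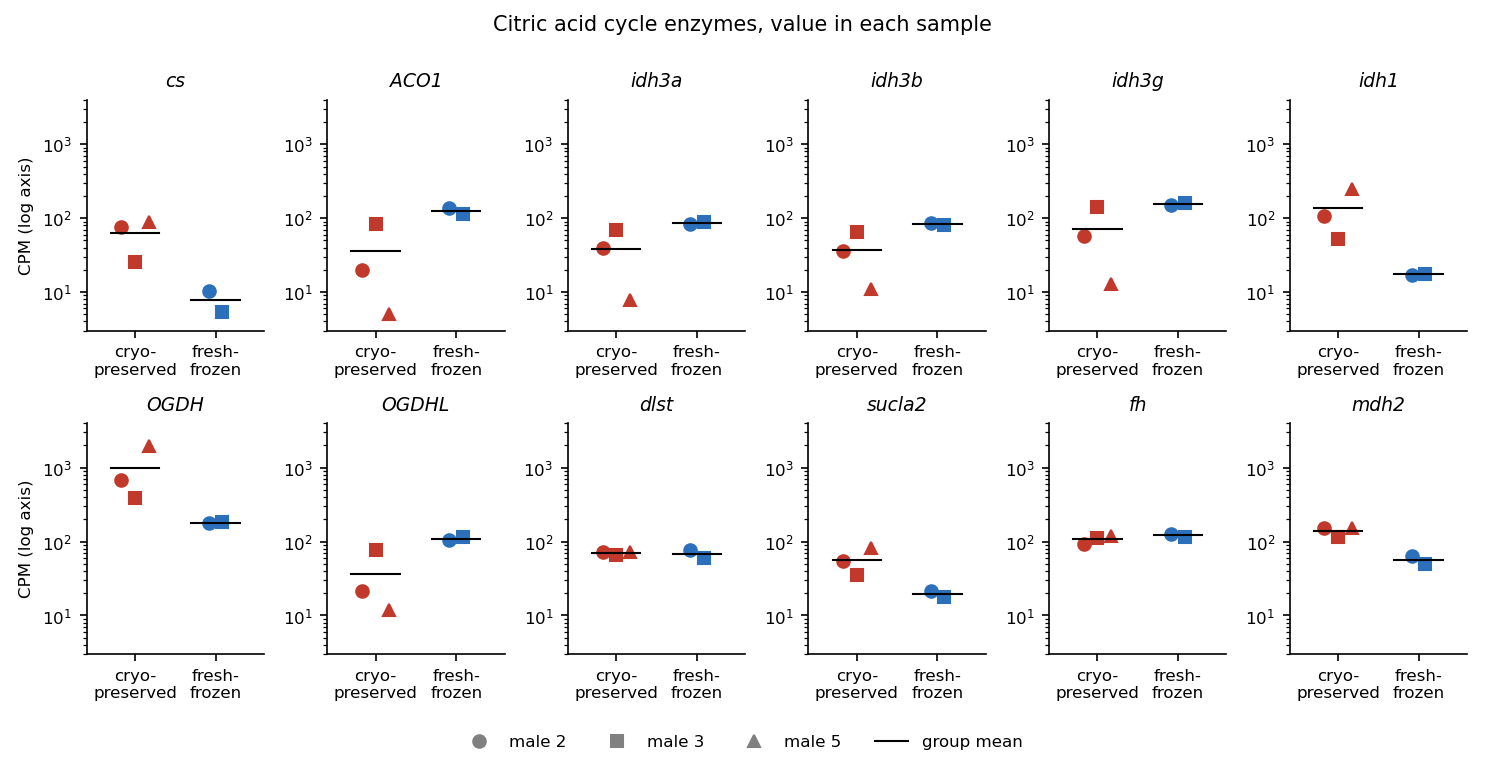
CPM (log axis) of 12 features in each sample, cryopreserved left and fresh-frozen right, with the marker shape giving the male and the line the group mean. They are TCA cycle enzymes, with the cytosolic *ACO1* and *idh1* shown beside them. *OGDH* and *OGDHL* lie on opposite sides of fresh-frozen sperm (385 to 1938 and 11.9 to 76.1 CPM in cryopreserved samples, against 177 to 184 and 103 to 115 CPM), while *dlst* and *fh* overlap.

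The oxoglutarate dehydrogenase complex is built like the PDC and shares its E3. Its E1 had 3 features. *OGDH* (AUIFUG00000005523) had 672, 385 and 1938 CPM across C2, C3 and C5, against 177 and 184 CPM in F2 and F3. Every cryopreserved value exceeded both fresh-frozen ones, but the log2 fold change of 2.13 ± 0.57 missed the FDR threshold (0.117). With the male as a block the FDR was 0.000726, but the log2 fold change of 1.49 was under the threshold of 2. *OGDHL*, the OGDH-like gene (AUIFUG00000024579), had 21.2, 76.1 and 11.9 CPM in cryopreserved sperm, against 103 and 115 CPM in fresh-frozen sperm (log2 fold change −1.98 ± 0.87; FDR = 0.265). The feature named *ogdh* in lower case (AUIFUG00000017140) had 39.0, 85.4 and 29.6 CPM across C2, C3 and C5, against 90.4 and 85.8 CPM in F2 and F3, and its log2 fold change of −0.91 was positive under TMM rescaling and median centring. The E2 gene *dlst* overlapped between groups, with 72.5, 66.0 and 73.0 CPM in cryopreserved sperm, against 77.6 and 59.6 CPM in fresh-frozen sperm (log2 fold change 0.05 ± 0.65, and 1.23, 1.10 and 0.48 under TMM rescaling, median centring and quantile normalization). The ratio of *OGDH* to *dlst* was 9.27, 5.84 and 26.5 in C2, C3 and C5, against 2.29 and 3.08 in F2 and F3 (log2 difference 2.09; exact permutation p = 0.2). For *ogdh* to *dlst* the groups overlapped, with 0.538, 1.29 and 0.405 in cryopreserved sperm, against 1.16 and 1.44 in fresh-frozen sperm (log2 difference −0.98; exact permutation p = 0.3).

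Succinyl-CoA ligase pairs a common α subunit (*suclg1*) with an ADP-forming (*sucla2*) or a GDP-forming (*SUCLG2*) β subunit. *sucla2* had 54.6, 35.0 and 81.3 CPM in cryopreserved sperm, against 21.1 and 18.0 CPM in fresh-frozen sperm (log2 fold change 1.42 ± 0.80; FDR = 0.278). *suclg1* overlapped, with 74.4, 31.2 and 69.0 CPM across C2, C3 and C5, against 36.4 and 29.7 CPM in F2 and F3. Of the 3 *SUCLG2* features, AUIFUG00000034255 had 7.40, 18.6 and 2.70 CPM in cryopreserved sperm, against 21.5 and 24.8 CPM in fresh-frozen sperm. The groups overlapped in AUIFUG00000034256, with 5.50, 22.2 and 0.535 CPM across C2, C3 and C5, against 20.8 and 23.1 CPM in F2 and F3. They also overlapped in AUIFUG00000034257, with 4.39, 0.908 and 1.41 CPM in cryopreserved sperm, against 3.27 and 3.97 CPM in fresh-frozen sperm. The ratio of AUIFUG00000034255 to *sucla2* was 0.135, 0.532 and 0.0333 in C2, C3 and C5, against 1.02 and 1.38 in F2 and F3 (log2 difference −3.15; exact permutation p = 0.2). For the other *SUCLG2* features the log2 difference to *sucla2* was −3.91 and −2.49, likewise without overlap of the groups.

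Fumarase and malate dehydrogenase close the cycle. *fh* had 92.4, 112 and 121 CPM in cryopreserved sperm, against 128 and 116 CPM in fresh-frozen sperm (log2 fold change −0.17 ± 0.57, and 1.02 and 0.88 under TMM rescaling and median centring). *mdh2*, the mitochondrial malate dehydrogenase, had 153, 115 and 151 CPM across C2, C3 and C5, against 63.0 and 49.8 CPM in F2 and F3 (log2 fold change 1.29 ± 0.60; FDR = 0.265). The ratio of *fh* to *mdh2* was 0.605, 0.973 and 0.796 in cryopreserved sperm, against 2.02 and 2.33 in fresh-frozen sperm (log2 difference −1.48; exact permutation p = 0.1). *mdh1b*, a relative of cytosolic malate dehydrogenase, had 348, 229.9 and 711 CPM across C2, C3 and C5, against 71.4 and 89.1 CPM in F2 and F3. Its FDR of 0.0836 was the lowest after the E1 features (log2 fold change 2.26 ± 0.56), and with the male as a block it was 0.00366 at a log2 fold change of 1.81. Copies of the cytosolic enzyme itself overlapped between groups. *mdh1aa* had 68.4, 84.2 and 150.1 CPM in cryopreserved sperm, against 49.5 and 77.2 CPM in fresh-frozen sperm, and *mdh1ab* had 131, 124 and 204 CPM, against 126 and 122 CPM. The ratio of *mdh1ab* to *mdh2* was 0.858, 1.07 and 1.35 in C2, C3 and C5, against 2.00 and 2.46 in F2 and F3 (log2 difference −1.05; exact permutation p = 0.1). For *mdh1aa* to *mdh2* the groups overlapped, with C5 at 0.992 and F2 at 0.786 (log2 difference −0.68; exact permutation p = 0.4).

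**Figure D4:**
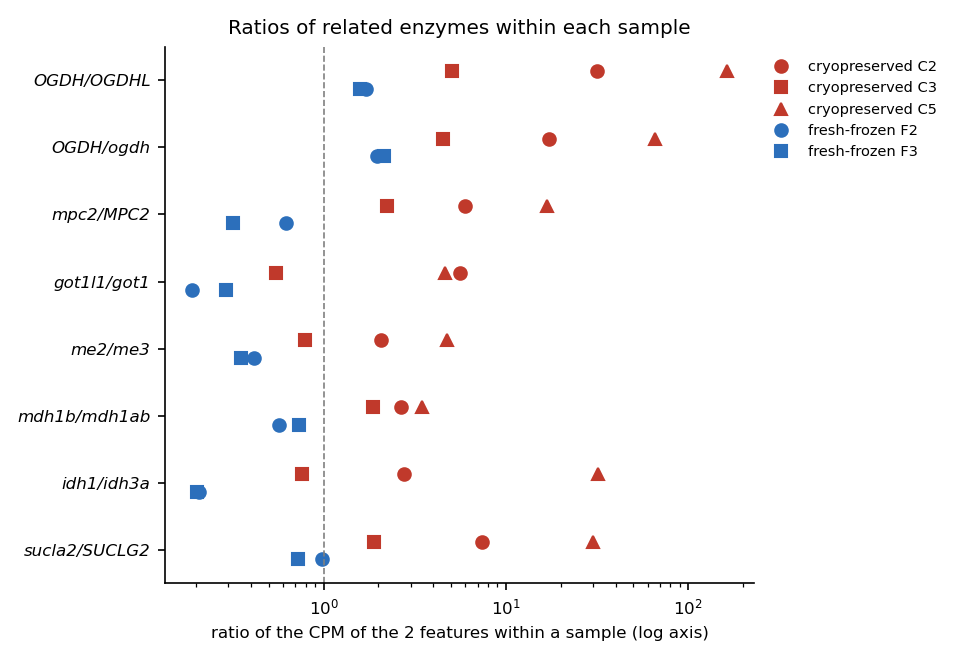
Ratio of 8 pairs of related members within each library (log axis), with cryopreserved samples above fresh-frozen ones in each pair; pairs were picked after the values were seen. The ratio of *OGDH* to *OGDHL* is 31.7, 5.06 and 163 in C2, C3 and C5 and 1.71 and 1.59 in F2 and F3.

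Within some enzyme families the members differed in their values relative to each other. These pairs were picked after their values were seen and are given without a test. The ratio of *OGDH* to *OGDHL* was 31.7, 5.06 and 163 in cryopreserved sperm, against 1.71 and 1.59 in fresh-frozen sperm. *mdh1b* relative to *mdh1ab* was 2.66, 1.86 and 3.49 in C2, C3 and C5, against 0.566 and 0.729 in F2 and F3. Relative to *got1*, the cytosolic aspartate aminotransferase, the *got1*-like gene *got1l1* stood at 5.61, 0.551 and 4.66 in cryopreserved sperm, against 0.190 and 0.293 in fresh-frozen sperm. In each of these pairs C3 was the cryopreserved sample nearest to fresh-frozen sperm. The mitochondrial aminotransferase *got2* overlapped between groups, and the ratio of *got1* to *got2* was 0.222, 0.825 and 0.220 in C2, C3 and C5, against 1.30 and 0.993 in F2 and F3 (log2 difference −1.73; exact permutation p = 0.2). Over the 9 malic enzyme, aminotransferase and glutamate dehydrogenase features, the log2 fold changes ran between −2.24 and 2.04, and none passed the test. A *glud1* feature (AUIFUG00000016158) was at the lower end and *me2*, an NAD-dependent malic enzyme in mammals, at the upper. The other *glud1* feature (AUIFUG00000007692) overlapped between groups, with a log2 fold change of 0.23.

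Each cryopreserved male was also set against the mean of the fresh-frozen samples. The median over the 53 members differed from fresh-frozen sperm by −0.03 in C2, −0.03 in C3 and −0.94 in C5 on the log2 scale, and the median over all features by −0.74, −0.21 and −1.93. The 3 E1 features stood at 3.82, 2.76 and 5.33 in C2, C3 and C5, and the 4 IDH3 features at −1.30, −0.34 and −3.06. By these medians C3 was nearest to fresh-frozen sperm for both groups of genes and C5 farthest, on opposite sides. The IDH3 median includes *IDH3G*, which passed the filter through fresh-frozen sperm alone and stood at −1.43, −2.67 and −2.09. The values of *idh3a*, *idh3b* and *idh3g* ran between −1.40 and −1.10 in C2, −0.36 and −0.14 in C3, and −3.51 and −2.84 in C5. The 13 flagellar marker features gave 3.53, 2.02 and 4.35 in C2, C3 and C5.

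**Figure D5:**
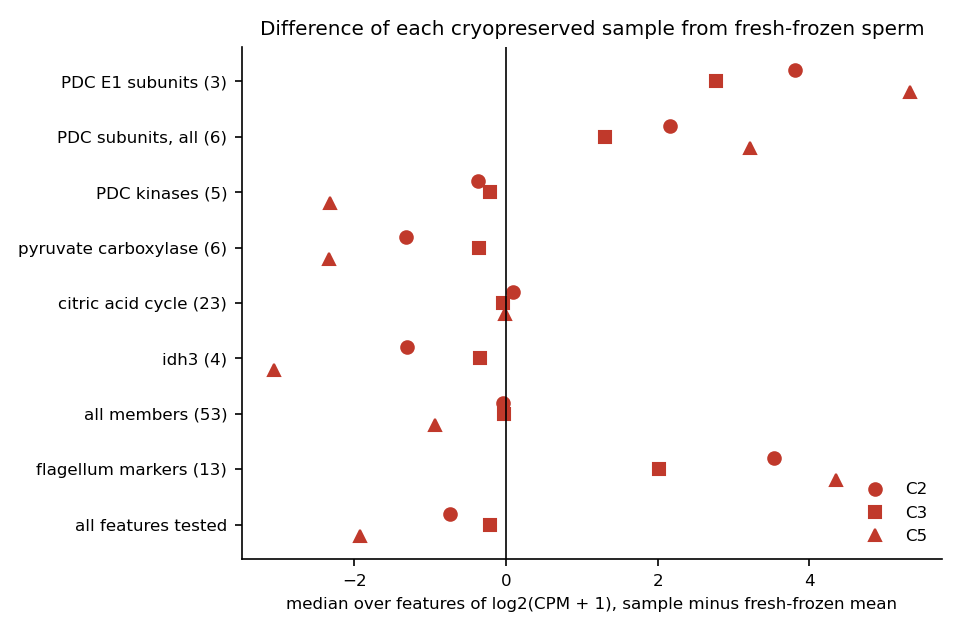
Median difference of each cryopreserved sample (C2, C3 and C5) from the mean of the 2 fresh-frozen samples, on the log2(CPM + 1) scale (x axis), over groups of members, flagellar markers and all features tested; the number of features stands beside each group. C5 lies farthest from 0 for the E1 subunits (5.33) and for IDH3 (−3.06). The IDH3 median includes *IDH3G*, which passed the filter through fresh-frozen sperm alone. The citric acid cycle group includes cytosolic enzymes such as *ACO1* and *idh1*.

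Genes around the module were described from lists named by pathway. The 6 features of complex II (succinate dehydrogenase, the enzyme between succinyl-CoA ligase and fumarase, and its assembly factors) had 0 DEGs, against 1.54% of all features. Their median log2 fold change was 0.78. In 4 of them all 3 cryopreserved samples lay above fresh-frozen sperm, against 13.6% of all features. Of these, *sdhaf1* had a group mean above 1 CPM, and so passed the filter, only in cryopreserved sperm. Another 1, the assembly factor *sdhaf4*, lay below (log2 fold change −0.59), against 41.7% of all features. The next list had 13 features: lipoylation, complexes related to the PDC, and *PDPR*, the regulatory subunit of the PDC phosphatase. It had 0 DEGs, against 1.54% of all features, and a median of −0.77. In 4 of the 13 all cryopreserved samples lay above, against 13.6% of all features, and in 4 they lay below, against 41.7%. Those that lay below were *PDPR*, *gcshb*, *bckdk* and *ppm1k*, with log2 fold changes between −2.12 and −0.97. The *dbt* feature AUIFUG00000024797 overlapped between groups. Those that lay above were *lias*, which makes the lipoyl cofactor, and *bckdha*, *bckdhb* and *DBT* (AUIFUG00000009008), E1 and E2 of the branched-chain ketoacid dehydrogenase. Of these, *bckdha* had 337, 143 and 940.5 CPM across C2, C3 and C5, against 125 and 136 CPM in F2 and F3 (log2 fold change 1.45 ± 0.68; FDR = 0.265).

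Among 15 transporters of pyruvate, lactate, phosphate and cycle intermediates, 1 was an upregulated DEG, against 1.54% of all features, and their median log2 fold change was −0.60. This was *slc16a7* (AUIFUG00000005539), a monocarboxylate transporter that carries pyruvate and lactate across the plasma membrane, with 267, 105 and 545 CPM in cryopreserved sperm, against 20.4 and 24.8 CPM in fresh-frozen sperm (log2 fold change 3.41 ± 0.75; FDR = 0.0467). The dicarboxylate carrier *slc25a10*, the oxoglutarate carrier *slc25a11*, the carnitine carrier *slc25a20* and the phosphate carrier *slc25a3* also lay above in all 3 cryopreserved samples, with log2 fold changes between 1.04 and 2.74 that did not pass the test. All cryopreserved samples thus lay above in 5 of the 15, against 13.6% of all features, and they lay below in 6, against 41.7%. The 6 had log2 fold changes between −2.48 and −0.72, none past the test. A second *slc16a7* feature (AUIFUG00000006625) was at the upper end of that range. Among 10 features of lactate, phosphoenolpyruvate and citrate metabolism, 2 were upregulated DEGs, against 1.54% of all features, and the median was −0.31. In 3 of the 10 all cryopreserved samples lay above, against 13.6% of all features, and in 4 they lay below, against 41.7%. *ldhba*, a lactate dehydrogenase B subunit, had 854, 402 and 3256 CPM across C2, C3 and C5, against 118 and 101 CPM in F2 and F3 (log2 fold change 3.23 ± 0.68; FDR = 0.0399). A feature of *ACLY*, which splits exported citrate into acetyl-CoA and oxaloacetate (AUIFUG00000030682), had 307, 42.7 and 792 CPM in cryopreserved sperm, against 7.29 and 5.81 CPM in fresh-frozen sperm (log2 fold change 4.87 ± 1.06; FDR = 0.0462). All 3 of these DEGs shared the order of the E1 features, highest in C5 and lowest of the cryopreserved samples in C3. Other features named *ACLY* did not pass the test. AUIFUG00000017257 lay below, with 25.6, 37.7 and 1.86 CPM across C2, C3 and C5, against 56.5 and 65.7 CPM in F2 and F3 (log2 fold change −2.11 ± 1.13). AUIFUG00000030681 overlapped between groups, and AUIFUG00000030748 lay above.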

How the data were processed

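Poly(A) RNA of blue catfish sperm was sequenced by the authors as paired-end libraries. Their processing used Trimmomatic 0.39 for trimming, TopHat 2.1.1 for alignment to the species' genome and HTSeq 1.0 for gene counts. The strand setting and the treatment of multi-mapped reads are not given in the sources used here. The authors deposited 1 table of values that they call RPKM, but its columns sum to between 992942 and 997458 and were treated as CPM. A deposited column of average log2 CPM followed the mean of the sample columns (Spearman ρ = 1.00) and served only for this check. The paper lists filtered reads and mapping rates by sample, with fewer filtered reads for each cryopreserved sample than for F2 or F3. The exact reads behind a value could not be recovered: 16.9% to 24.8% of low values lay within 0.1 of a whole multiple of the smallest one. No counting intervals are given.

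The technical replicates of C2 were averaged to 1 sample. F5, which the study set aside for its mapping rate, was not analysed here. Values were taken as log2(CPM + 1) and fitted over the 27255 features with a group mean above 1 CPM by limma 3.58.1 under R 4.3.3, using a trended prior, C2, C3 and C5 against F2 and F3. FDR is Benjamini-Hochberg over all features tested, and all 53 members passed the filter. The script was tested on simulated data. Ratios were compared with two-sided exact permutation tests over samples. Tables were made in Python 3.11.15 (pandas 2.3.3, scipy 1.17.1, numpy 2.4.6) and figures in matplotlib 3.10.9.

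Members were matched by name, with an Ensembl name of NA read as no name, and every member could be named in the text; 1 member is counted but not reported here. Subunits, regulators, carriers, carboxylase and cycle enzymes were to be given by sample and the other enzymes by range or pair. Genes of the pathway lists were to be named where they were DEGs or ran against their list's median without overlap. Some others were named as well. Members, lists and pairs were chosen with earlier results of these data known. Samples were matched to males by the digits in the names, as the paper gives them. The main fit was unpaired, and the male entered only in the block alternative. Across features, the correlation of C2 − C3 with F2 − F3 was −0.018. Alternatives covered the pseudocount, filter, scaling, prior, male as a block, each technical replicate, each sample left out and the thresholds. No sequences or coordinates were used here.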

Additional observations from a re-analysis of the deposited data

How the results depend on the processing

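Against 3 upregulated members, the count was 0 at a pseudocount of 0.1, with median centring or a constant prior, 5 at a pseudocount of 5, 7 after quantile normalization and 5 with the male as a block. With each sample left out in turn, it ran between 0 and 11, and the count of downregulated members between 0 and 10. The block fit rests on males 2 and 3, and its variances come from the trend over all features alone. The median log2 fold change of the members, −0.39, moved to 0.77 (TMM rescaling), 0.66 (median centring) and 0.30 (quantile normalization). It was 0.14 without the 9 features that have NA in place of an Ensembl name, a choice made after seeing the data. In the other alternatives run, the counts were within 1.5 times 3, and the median moved by less than the spread between samples. The cause was not tested.

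Under TMM rescaling, median centring and quantile normalization, 13 members changed sign under at least 1 of them. In that order, the log2 fold change became 1.07, 0.94 and 0.55 for *pdhx*, 0.30, 0.22 and 0.16 for *pdk4*, 0.28, 0.19 and 0.0048 for *PC* AUIFUG00000031339, 0.49, 0.40 and 0.30 for *MPC2*, and 0.77, 0.66 and 0.47 for *idh2*. It became 0.25, 0.39 and 0.42 for *SUCLG2* AUIFUG00000034257, 0.084, 0.17 and 0.10 for *ME3* AUIFUG00000043104, and 0.97, 0.90 and 0.76 for *me3*. Under TMM rescaling and median centring alone it became 1.02 and 0.88 for *fh* and 0.27 and 0.14 for *ogdh*. Under median centring and quantile normalization alone it became 0.061 and 0.012 for *PDK1* and 0.14 and 0.055 for *pdk2a*, and 0.11 under median centring alone for *ME3* AUIFUG00000043105. With the male as a block, *pdk4* (0.016) and *idh2* (0.17) turned positive. With each sample left out, the range crossed 0 for *dlst* (−0.14 to 0.24), *glud1* AUIFUG00000007692 (−0.12 to 0.58), *idh2* (−0.71 to 0.17), *me3* (−0.31 to 0.012) and *pdk4* (−1.28 to 0.016). No called member changed sign. As the exact reads behind each value could not be recovered, values under about 1 CPM were given no error.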
